A study of Mus musculus with 12 samples.

Results

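The products of the 10 genes described here make nitric oxide, bear on how much is made or carry its signal in the vessel wall. They were chosen by symbol from the 25284 gene rows of a count table of mouse thoracic aorta, and all 10 had a row. Nos3, Nos1 and Nos2 encode the nitric oxide synthases, Ddah1 and Ddah2 the enzymes that clear methylated arginines, Arg1 and Arg2 the arginases, Gucy1a3 and Gucy1b3 the subunits of soluble guanylate cyclase, and Prkg1 a cGMP-dependent protein kinase. Male ApoE-/- mice on a C57BL/6 background received either AZ6983, an agonist of α7nAChR, or vehicle from osmotic minipumps under the skin, and RNA from the thoracic aorta was sequenced. All mice lacked apolipoprotein E, ate a high fat diet with added cholesterol, were treated from 10 weeks of age for 8 weeks and were 18 weeks old at the end. The dose of AZ6983 was 50 µmol per kg per day in 6 mice, called A1 to A6, and 6 controls, called C1 to C6, had cyclodextrin in saline. The question put to the data was whether the level of any of these genes differed between the groups.

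Nitric oxide is made from arginine. In vessels it comes mainly from the endothelium and diffuses into smooth muscle, where it binds soluble guanylate cyclase, and the cGMP that is formed activates the kinase encoded by Prkg1 and relaxes the vessel. Methylarginines inhibit the synthases, and arginases use the same arginine to make ornithine and urea, so both enzyme families bear on how much nitric oxide is formed. Loss of endothelial nitric oxide is a well-known feature of atherosclerotic vessels.

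The guanylate cyclase genes are neighbours on mouse chromosome 3 (build GRCm38). Gucy1b3, now named Gucy1b1, lay at 82032006 to 82074689 and Gucy1a3, now Gucy1a1, at 82092427 to 82145789, both on the minus strand and 17.7 kb apart. Prkg1 spans 1200.5 kb of chromosome 19, from 30564489 to 31765033 on the minus strand. The sequences upstream of these 3 genes are shown because the 3 carry the nitric oxide signal inside smooth muscle and are set against smooth muscle markers further on. They are RefSeq promoter windows of GRCm38.p6, 5′ to 3′ on the minus strand, cut where needed so that no base of an annotated exon is included. Capitals mark GGGCGG, the core of a GC box. They lie at chr3:82074712-82074961 for Gucy1b3, chr3:82145790-82145900 for Gucy1a3 and chr19:31765034-31765283 for Prkg1.
Gucy1b3: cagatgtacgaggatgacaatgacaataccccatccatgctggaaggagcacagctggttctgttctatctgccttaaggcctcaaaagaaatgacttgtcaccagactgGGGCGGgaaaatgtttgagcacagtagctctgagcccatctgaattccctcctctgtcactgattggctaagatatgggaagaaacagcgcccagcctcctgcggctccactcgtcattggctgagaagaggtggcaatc
Gucy1a3: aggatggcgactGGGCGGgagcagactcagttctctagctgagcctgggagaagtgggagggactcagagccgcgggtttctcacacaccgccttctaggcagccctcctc
Prkg1: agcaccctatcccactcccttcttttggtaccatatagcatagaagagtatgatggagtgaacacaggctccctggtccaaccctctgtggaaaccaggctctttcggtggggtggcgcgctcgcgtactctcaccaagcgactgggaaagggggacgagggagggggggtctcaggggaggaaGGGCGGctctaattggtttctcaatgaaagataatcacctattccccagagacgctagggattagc
Each of these 3 stretches held 1 GGGCGG, and their GC content was 51.2%, 63.1% and 55.2%. RefSeq windows were matched for 6 of the 10 genes (Nos1, Ddah1, Ddah2, Gucy1a3, Gucy1b3 and Prkg1), with 8 windows of 250 bases in all. GGGCGG, searched on both strands, was present in 5 of the 8 windows and in 32.7% of the 32851 RefSeq windows of that length. The 8 are not independent, since Gucy1a3 and Prkg1 gave more than 1 window and each Prkg1 window held it. GC content was 51.2% to 64% in the 8 windows, beside a median of 52.4% over all windows. The part of GC content in this count was not tested. The CArG box, the binding motif of serum response factor, was present in 0 of the 8 windows and in 1.47% of all windows, and its absence says only that these letters are not in these stretches. Nos2, Nos3, Arg1 and Arg2 were not matched.

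The other genes lie on separate chromosomes or far apart. In the same build Nos3 lay on chromosome 5 at 24364810 to 24384474 and Nos1 on chromosome 5 at 117781032 to 117958840, both on the plus strand. Nos2 lay on chromosome 11 at 78920787 to 78960254, Ddah1 on chromosome 3 at 145758675 to 145894277 and Ddah2 on chromosome 17 at 35059035 to 35062095, all on the plus strand. Arg1 lay on chromosome 10 at 24915221 to 24927484 on the minus strand, and Arg2 on chromosome 12 at 79130777 to 79156301 on the plus strand. Some exons of these genes overlap genes on the opposite strand. For Nos3, 25.2% of the exon length is shared with Gm15587 and 7.12% with Atg9b, the gene antisense to it. For Arg2, 20.0% is shared with Vti1b and 8.12% with Gm48780, and for Nos1, 2.40% with Gm26995. The libraries were stranded, but whether the counting used the strand is not given in the sources used here. Reads in these stretches may therefore have been counted for either gene or set aside as ambiguous.

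Each mouse had between 23810036 and 35864666 counts on genes. Reads that fell on no gene were 8.02% to 12.7% of each control library and 11.2% to 14.9% of each AZ6983 library. Every control but C2 was below every AZ6983 mouse. A fit with this share as a covariate therefore cannot separate the share from the group. Markers of smooth muscle, endothelium, macrophages and fibroblasts were present in every mouse, with summed levels of 11047 to 18926, 827 to 1047, 684 to 1332 and 2273 to 3542 CPM (counts relative to the library total, scaled by the TMM method) for 8 markers each. No marker was at 0 in all mice. The thymus and T cell markers summed to 1001 CPM in A4 and to 39.6 CPM or less in every other mouse, and A5 had the lowest smooth muscle sum and the highest brown fat sum (6132 CPM, against 2541 to 4692 in the other 11). Values without A4 or A5 are given beside the genes whose difference they moved most. The library of A1 was matched to its label by part of the mouse number, and the other 11 by the full number.

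Levels can be set beside each other between genes only per length of transcript, so CPM was divided by the exon length of each gene in kb. The cyclase subunits were the highest of the 10 genes. Gucy1b3 was at 42.3 ± 6.35 CPM per kb (SD, n = 12 mice) and Gucy1a3 at 28.9 ± 6.05. Ddah2 followed at 16.3 ± 2.40, Nos3 at 10.4 ± 1.05 and Prkg1 at 5.59 ± 0.611. Each of these 5 genes was above the next in all 12 mice, and Prkg1 was likewise above Ddah1 in all 12. Below them lay Ddah1 at 1.22 ± 0.511 and Nos2 at 0.554 ± 0.223 CPM per kb, with Ddah1 above Nos2 in 11 of 12 mice. Arg2 (0.311 ± 0.193), Arg1 (0.178 ± 0.108) and Nos1 (0.113 ± 0.0616) were the lowest. The order of these neighbours was not the same in every mouse: Nos2 was above Arg2 in 9 mice, Arg2 above Arg1 in 8 and Arg1 above Nos1 in 9. Their differences were not tested. Of the summed level per kb of the 3 synthases, Nos3 made up 88.9% to 96.5% in the 12 mice, Nos2 2.98% to 9.87% and Nos1 0.391% to 2.17%. In each mouse, then, the endothelial synthase accounted for most of the synthase RNA counted.

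**Figure D1:**
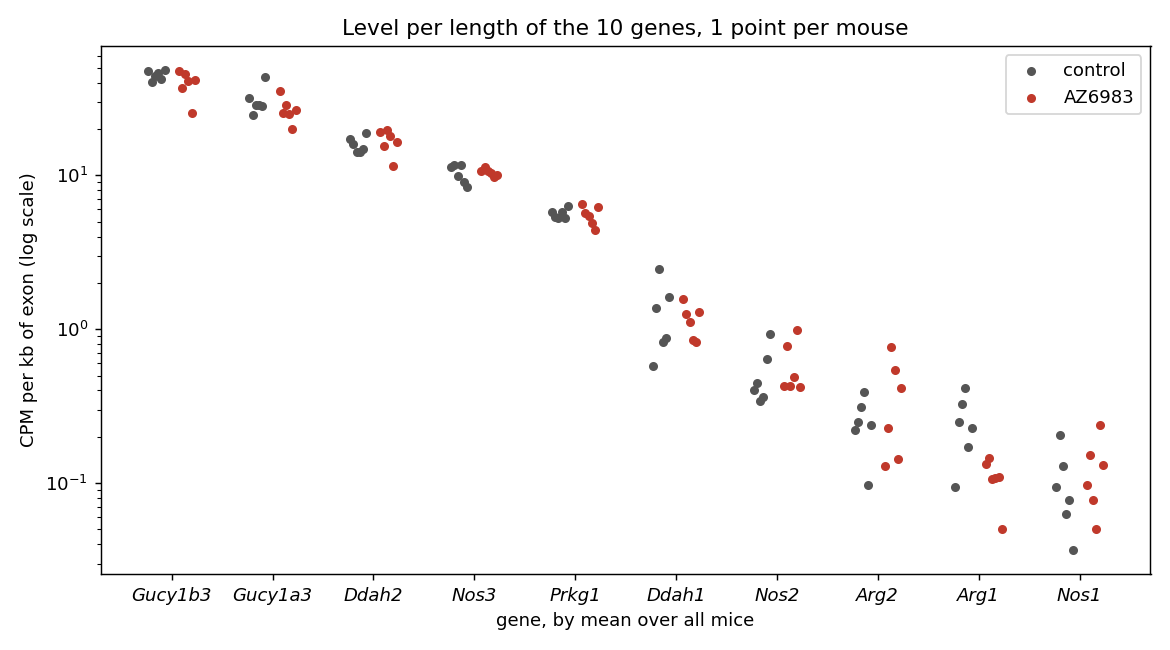
Level of each gene in CPM per kb of exon (log axis) in each of the 12 mice, with control mice in grey and AZ6983 mice in red, ordered by the mean over all mice. Gucy1b3 lies highest with a mean of 42.3 and Nos1 lowest with 0.113, and the points of the 2 groups overlap for every gene.

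The quasi-likelihood test of edgeR with Benjamini-Hochberg adjustment was used to compare AZ6983 with control mice. Differences are log2 fold changes of AZ6983 over control mice with their standard errors (SE). Of the 10 genes, 8 passed the filter on low counts, and Arg1 and Arg2 did not, so that these were read from a fit on all 25284 rows. None of the 8 passed 10% FDR (smallest adjusted p = 0.612 from edgeR), and 0 of 8 had an unadjusted p under 0.05. Over all 15857 genes tested, 0% passed 10% FDR in edgeR, 7.38% had an unadjusted p under 0.05 and were higher in AZ6983 mice, and 2.81% were lower. The smallest adjusted p of any gene was 0.157, while DESeq2 called 84 of the same genes at 10% FDR and limma-voom 0. None of the 84 was among these 8 genes. Of the 8 genes 4 had a positive and 4 a negative log2 fold change, and their median was −0.0021, beside 0.0090 over all genes tested. The groups overlapped for each of the 10 genes. Over all genes tested, 0.151% had every AZ6983 mouse below every control and 0.259% every AZ6983 mouse above.

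**Figure D2:**
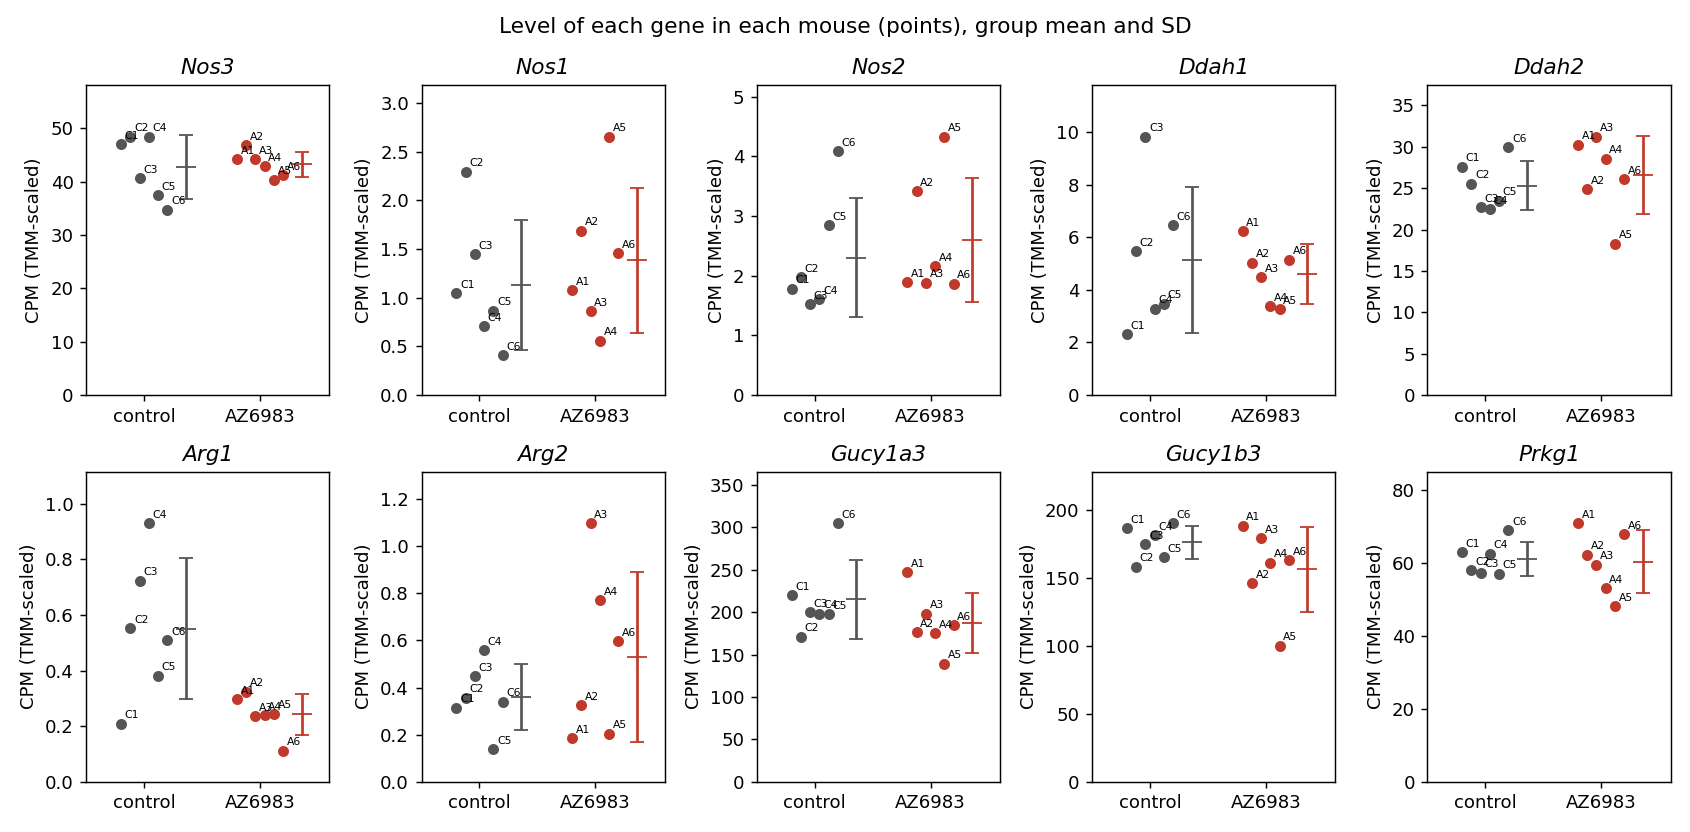
Level of each of the 10 genes in CPM (linear axis from 0) in each mouse, with the group mean and SD beside the points. Control and AZ6983 mice overlap in every panel, and A5 is the lowest mouse for Gucy1a3 (139 CPM), Gucy1b3 (100.1), Prkg1 (48.0) and Ddah2 (18.3).

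Of the synthases, Nos3, the endothelial form, was measured with the best precision. It had 34.8, 43.8 and 48.4 CPM (lowest, median and highest of 6) in control mice and 40.3, 43.5 and 46.8 CPM in AZ6983 mice. All 6 AZ6983 mice lay inside the range of the controls. The log2 fold change was 0.02 (SE 0.086, edgeR adjusted p = 0.960), with a 95% interval from 0.889-fold to 1.15-fold, from 987 to 1611 counts per mouse. The summed level of 8 endothelial markers was 964 ± 79.9 CPM in the control group and 988 ± 57.6 CPM with AZ6983 (± SD, n = 6 each), and 1 of the 8 had an unadjusted p under 0.05, upward. Nos3 as a share of that sum was 4.44% ± 0.457 and 4.40% ± 0.477 (± SD, n = 6 each), a log2 difference of −0.01 (two-sided exact permutation test, p = 0.894, adjusted over 4 such ratios 0.894). In RNA from whole tissue, fewer cells of a type and less RNA per cell cannot be told apart.

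Nos1, the neuronal form, which skeletal muscle fibres also make, had few reads. It ranged over 0.408, 0.956 and 2.29 CPM (lowest, median and highest) in controls, from 12 to 58 counts, and over 0.559, 1.27 and 2.66 CPM in AZ6983 mice, from 21 to 65 counts. The highest mice, A5 and C2, came from different groups. The log2 fold change was 0.29 (SE 0.426, adjusted p = 0.820, 95% interval −0.63 to 1.21), and it was −0.02 without A5 and −0.29 with the no-gene read share as a covariate. Nos2, the inducible form of macrophages and cytokine-treated cells, ranged over 1.52, 1.88 and 4.08 CPM in controls and 1.86, 2.02 and 4.33 CPM in AZ6983 mice. A5, C6, A2 and C5 were the highest mice, 2 from each group, and the other 8 sat close together at 1.52 to 2.16 CPM. Its log2 fold change was 0.17 (SE 0.301, adjusted p = 0.858, 95% interval −0.48 to 0.82), −0.05 without A5 and −0.17 with the covariate. The 95% intervals reached 2.32-fold for Nos1 and 1.77-fold for Nos2, and smaller rises could not be told from none given the spread between mice.

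The dimethylarginine dimethylaminohydrolases, which clear methylarginines, were uneven across mice to different degrees. Ddah1 had 2.30, 4.46 and 9.83 CPM (lowest, median and highest) in controls and 3.27, 4.75 and 6.24 CPM in AZ6983 mice. A control mouse, C3, held the highest level and another, C1, the lowest, and all AZ6983 mice lay between them. The log2 fold change was −0.16 (SE 0.314, adjusted p = 0.870 from edgeR, 95% interval −0.84 to 0.52), and it was 0.12 without C3 and −0.41 with the covariate. Ddah2, at several times the level per kb, had 22.5, 24.5 and 29.9 CPM in controls and 18.3, 27.3 and 31.2 CPM in AZ6983 mice, with A5 lowest and A3 highest of the 12. Its log2 fold change was 0.07 (SE 0.122, adjusted p = 0.853, 95% interval −0.19 to 0.33), and it was 0.14 without A5, 0.02 without A3 and 0.15 with the covariate. The ratio of Ddah2 to Ddah1 counts, which compares mice rather than genes, ran from 2.31 in C3 to 12 in C1 among controls and from 4.85 to 8.46 in AZ6983 mice, whose range lay within that of the controls.

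The arginases were near the limit of detection. Arg1, the cytosolic arginase of liver and of some macrophages, had 0.209, 0.532 and 0.930 CPM (lowest, median and highest) in controls and 0.112, 0.242 and 0.324 CPM in AZ6983 mice. In counts this was 6 to 25 per control mouse, 92 in all, and 3 to 9 per AZ6983 mouse, 41 in all. Control mouse C1, at 6 counts, lay among the AZ6983 mice, and the other 5 controls (0.381 CPM or more) lay above all 6. In the fit without a filter the log2 fold change was −1.19 (SE 0.355, 95% interval −1.95 to −0.43) with an unadjusted p of 0.00479 and an adjusted p of 0.529 from edgeR, so Arg1 did not pass the threshold. In that fit 2.9% of all rows were lower in AZ6983 mice with an unadjusted p under 0.05, and Arg1 was the only 1 of the 10 genes to be so. The 8 macrophage markers, of which 0 had an unadjusted p under 0.05, summed to 793 to 1332 CPM in controls and 684 to 1306 CPM in AZ6983 mice. The 8 neutrophil markers summed to 18.1 to 60.0 CPM in controls and 37.4 to 258 CPM in AZ6983 mice, with 8 of 8 higher at an unadjusted p under 0.05, and the part of either cell type in the Arg1 difference was not tested.

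Arg2, the mitochondrial arginase, which endothelial cells make, had 0.139, 0.348 and 0.558 CPM in controls (4 to 15 counts) and 0.186, 0.460 and 1.10 CPM in AZ6983 mice (5 to 29 counts). A3, A4 and A6 were above every control, while A1, A2 and A5 lay within the control range. The log2 fold change in the fit without a filter was 0.54 (SE 0.444, adjusted p = 0.649 from edgeR, 95% interval −0.41 to 1.49), and it was 0.21 without A3. The ratio of Arg2 to Arg1 counts was 0.364 to 1.5 in control mice and reached 5.33 in AZ6983 mice, and the same A3, A4 and A6 lay above the highest control. With 3 to 29 counts behind each value, counting error alone is large for both arginases.

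The subunits of soluble guanylate cyclase, the nitric oxide receptor of smooth muscle, had the deepest counts of the 10 genes. Gucy1a3 (alpha subunit) had 171, 199 and 305 CPM (lowest, median and highest) in controls and 139, 181 and 247 CPM in AZ6983 mice. C6 was the highest mouse and A5 the lowest, and the other mice of both groups overlapped. The log2 fold change was −0.20 (SE 0.148, adjusted p = 0.612 from edgeR), with a 95% interval from 0.695-fold to 1.08-fold. With each mouse left out it ran from −0.30 without A1 (adjusted p = 0.363 from edgeR) to −0.08 without C6. Gucy1b3 (beta subunit) had 158, 178 and 190 CPM in controls and 100.1, 162 and 188 CPM in AZ6983 mice. A5 and A2 were below every control, and the other 4 AZ6983 mice lay within the range of the controls. The log2 fold change was −0.17 (SE 0.124, adjusted p = 0.612), with a 95% interval from 0.737-fold to 1.07-fold. With each mouse left out it ran from −0.23 without A1 (adjusted p = 0.410 from edgeR) to −0.09 without A5. When the no-gene read share entered as a covariate, the log2 fold changes were −0.03 for Gucy1a3 and −0.02 for Gucy1b3. The share was lower in every control but C2 than in any AZ6983 library, so that fit cannot separate it from the group.

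The ratio of the subunits within a mouse was also compared. Gucy1a3 over Gucy1b3, per kb, was 0.685 ± 0.110 in the control group and 0.680 ± 0.0685 with AZ6983 (± SD, n = 6 each). In 5 controls the ratio was 0.609 to 0.673, and in C6 it was 0.904, since Gucy1a3 was high there and Gucy1b3 was not far above the other controls. The AZ6983 mice ran from 0.613 to 0.784, with A5 highest.

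Prkg1, the kinase that cGMP activates, had 57.0, 60.2 and 68.9 CPM (lowest, median and highest) in controls and 48.0, 60.9 and 70.8 CPM in AZ6983 mice. The AZ6983 mice were the more spread out, with A5 and A4 below every control and A1 above. Its log2 fold change was −0.02 (SE 0.092, adjusted p = 0.951 from edgeR), with a 95% interval from 0.859-fold to 1.13-fold. It was 0.01 without A4, 0.02 without A5 and 0.08 without both.

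**Figure D3:**
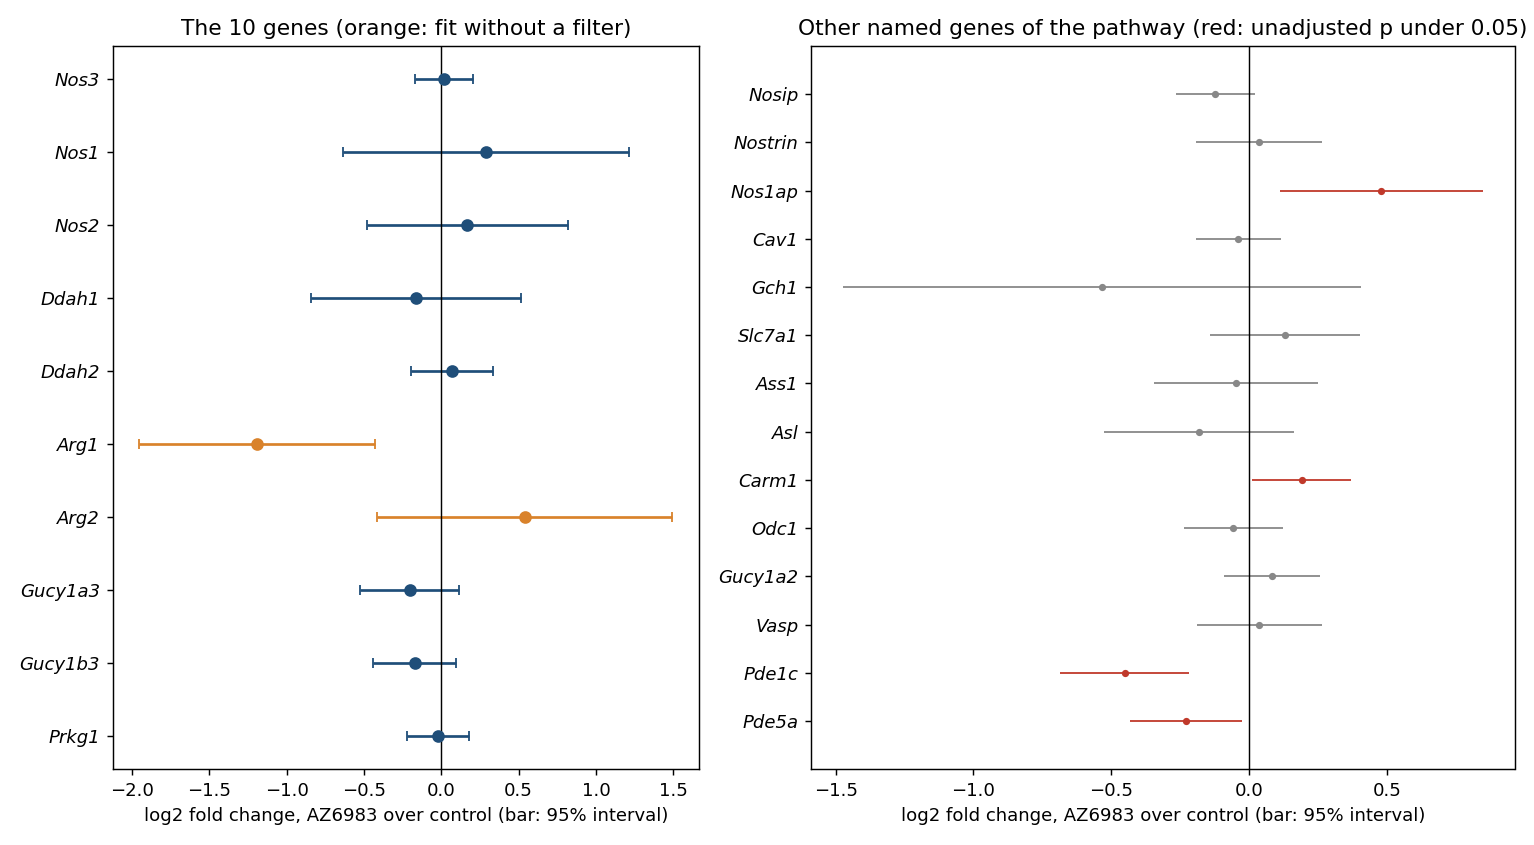
Log2 fold change of AZ6983 over control mice with its 95% interval for the 10 genes (left) and for the 14 tested genes of the wider pathway list that the text names (right). All intervals of the 8 genes that passed the filter include 0, that of Arg1 (−1.95 to −0.43, fit without a filter) does not, and no gene drawn passed 10% FDR in edgeR.

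Levels of several of these genes moved across mice with marker sums, some with those of more than 1 cell type. For the 8 tested genes and 10 marker lists, 80 correlations over the 12 mice were computed on log2 levels, chosen after seeing the data, with p-values from 100000 permutations adjusted over the 80. With both measures taken from 1 library, a list that takes a large share of the reads lowers everything else, and its part in these relations was not tested. Gucy1b3 rose with the summed smooth muscle markers (r = 0.876, permutation p = 0.00173, adjusted 0.0282; rho = 0.825, p = 0.00176, adjusted 0.0704). The relation was r = 0.966 within controls and 0.925 within AZ6983 mice, and r = 0.585 without A5 and C2, the mice farthest from the median. Gucy1a3 did likewise (r = 0.797, permutation p = 0.0028, adjusted 0.0373; rho = 0.797, p = 0.00301, adjusted 0.0772), with r = 0.781 within controls, 0.864 within AZ6983 mice and 0.645 without the same mice. Prkg1 gave r = 0.742 (permutation p = 0.00636, adjusted 0.0509; rho = 0.699, p = 0.0142, adjusted 0.128), with 0.901 and 0.693 within the groups and 0.468 without A5 and C2. These 3 are the genes whose upstream sequences are shown above. They were not the only ones: Ddah2 also rose with the smooth muscle sum (r = 0.769, permutation p = 0.00477, adjusted 0.0485; rho = 0.608, p = 0.0404, adjusted 0.231) by r but not by rho, and was at r = 0.546 without A5 and C2. Its r was 0.501 within controls and 0.921 within AZ6983 mice. Gucy1b3 and Gucy1a3 likewise passed an adjusted p of 0.05 with this sum by r but not by rho, and Prkg1 passed by neither. Nos1 fell as that sum rose (r = −0.737, permutation p = 0.00485, adjusted 0.0485; rho = −0.671, p = 0.0211, adjusted 0.134), with −0.800 and −0.724 within the groups and −0.473 without A5 and C2. Each of these relations was weaker without A5 and C2. Leaving out the mice farthest from the median, here and for the other lists, narrows the range of the sum. That alone can lower r. A5 had the lowest smooth muscle sum, 11047 CPM beside 14139 to 18926 CPM in the other mice, and the values within controls do not include it. Of the 8 smooth muscle markers 1 was lower in AZ6983 mice at an unadjusted p under 0.05. A positive r was not particular to smooth muscle. With the adventitial fibroblast sum r was 0.774 for Gucy1b3, 0.743 for Gucy1a3 and 0.678 for Prkg1 (adjusted permutation p = 0.085, 0.0534 and 0.0821). Without A5 and A6 these were 0.206, 0.597 and 0.738. With the macrophage sum r was 0.572, 0.627 and 0.638 (adjusted permutation p = 0.171, 0.112 and 0.110).

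Nos1 moved with markers of skeletal muscle, a tissue that is not part of the aortic wall. Their sum ran from 4.35 to 500.3 CPM in controls and from 15.5 to 515 CPM in AZ6983 mice, 0 of 8 had an unadjusted p under 0.05 between the groups, and A5, C2, A6 and A2 were the highest mice. Over the 12 mice r was 0.806 (permutation p = 0.00176, adjusted 0.0282) and rho 0.881 (p = 0.00035, adjusted 0.028), and this was the only one of the 80 relations to pass 0.05 on both measures. It was r = 0.756 within controls, 0.861 within AZ6983 mice and 0.783 without A5 and C4. Ddah1 moved with nerve markers, whose sum was 89.8 to 591 CPM in controls, with C3 highest, and 80.6 to 272 CPM in AZ6983 mice (1 of 8 lower at an unadjusted p under 0.05). Here r was 0.822 (permutation p = 0.00081, adjusted 0.0221) and rho 0.783 (p = 0.00386, adjusted 0.0772), with r = 0.960 within controls, 0.378 within AZ6983 mice and 0.596 without C3 and C6.

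For Nos3 and the endothelial marker sum r was 0.410 (permutation p = 0.187, adjusted 0.416) and rho 0.252 (p = 0.429, adjusted 0.700), with r = 0.718 within controls and −0.761 within AZ6983 mice, so no common relation held. It was 0.103 without A2 and C6. Gucy1a3 fell as the white fat sum rose (r = −0.889, permutation p = 0.00047, adjusted 0.0221; rho = −0.748, p = 0.00719, adjusted 0.0822), with −0.971 and −0.839 within the groups and −0.612 without A5 and C6. Ddah2 fell as the brown fat sum rose (r = −0.834, permutation p = 0.00083, adjusted 0.0221; rho = −0.748, p = 0.00685, adjusted 0.0822), with −0.793 and −0.913 within the groups and −0.735 without A4 and A5. The brown fat sum was 2821 to 4692 CPM in controls (median 4442) and 2541 to 6132 CPM in AZ6983 mice (median 2717). In 4 of 6 AZ6983 mice it was below every control, and in A5 it was above every control. The white fat sum was 3447 to 7340 CPM in controls (median 5370) and 4640 to 8698 CPM in AZ6983 mice (median 5269). In all 8 of the 80 relations passed an adjusted p of 0.05 by r. For Nos2 the smallest adjusted p by r over the 10 lists was 0.263.

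**Figure D4:**
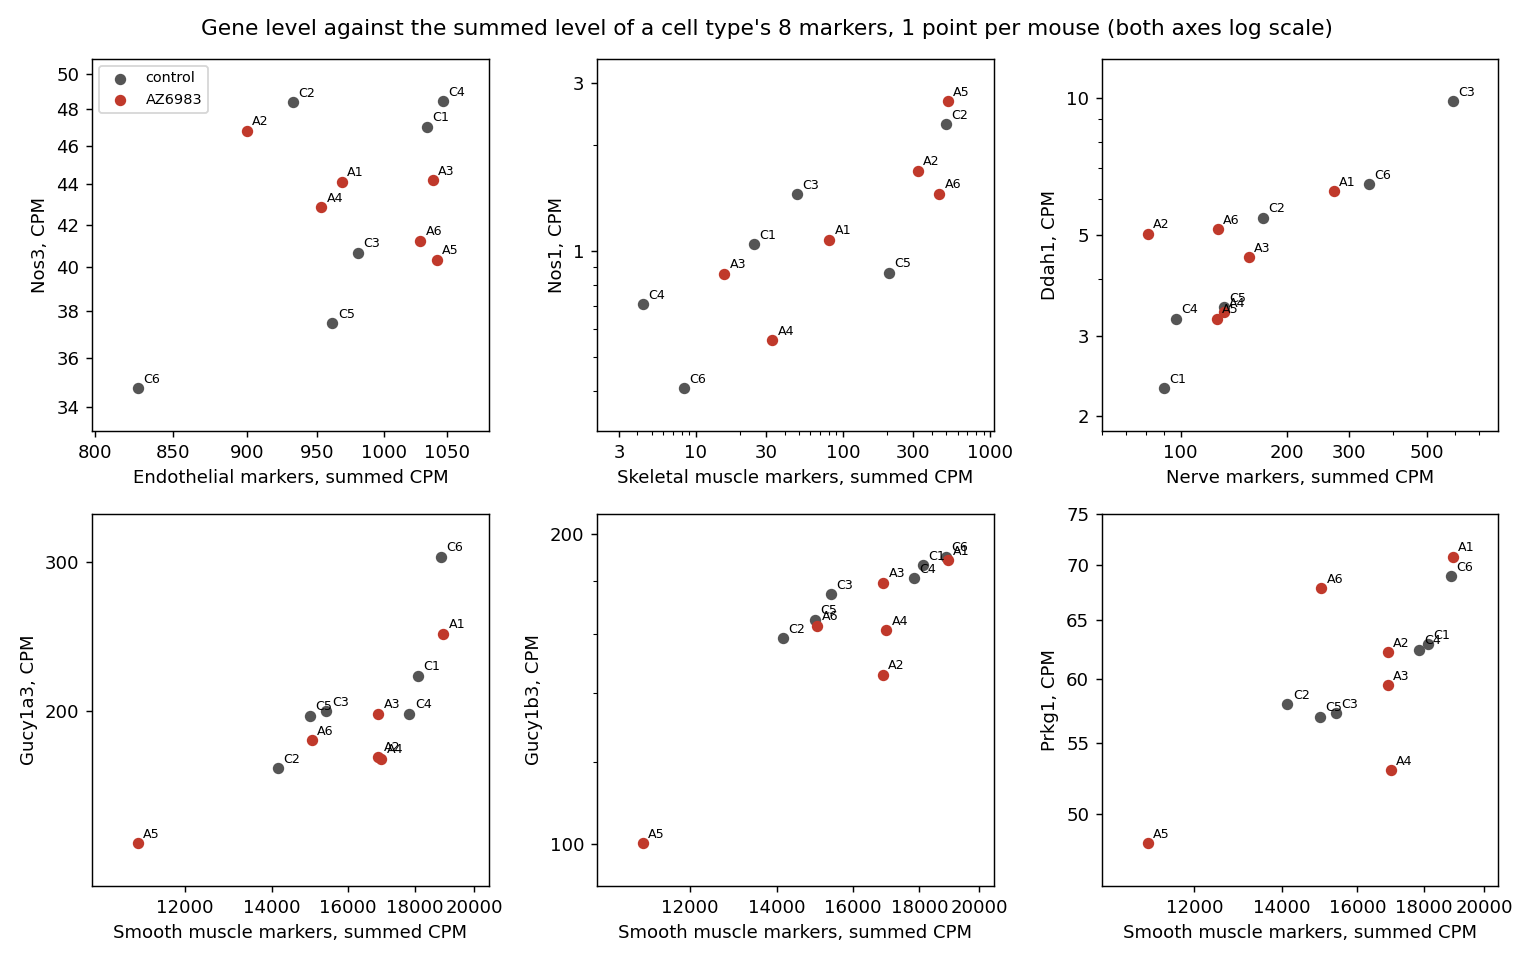
Level of a gene in CPM against the summed CPM of 8 markers of a cell type, both on log axes, with 1 labelled point per mouse. Gucy1a3 and Gucy1b3 rise with the smooth muscle sum and are, like Prkg1, lowest in A5 at 11047 CPM, Nos1 rises with the skeletal muscle sum, Ddah1 with the nerve sum, and Nos3 shows no common trend with the endothelial sum.

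Set against the smooth muscle sum of the same mouse, no difference in the cyclase subunits or Prkg1 passed the exact test after adjustment over the ratios. Gucy1b3 was 1.07% ± 0.0569 of the sum in controls and 0.977% ± 0.0867 with AZ6983 (± SD, n = 6 each), with A1, A2, A4 and A5 below every control. The log2 difference was −0.13 (two-sided exact permutation test, p = 0.0606, adjusted over 4 ratios 0.242). Gucy1a3 was 1.29% ± 0.174 in controls and 1.17% ± 0.113 in AZ6983 mice, a log2 difference of −0.14 (exact permutation test, p = 0.182, adjusted 0.364), and −0.07 without C6. Prkg1 was 0.371% ± 0.0231 and 0.382% ± 0.0522, a log2 difference of 0.03 (exact permutation test, p = 0.695, adjusted 0.894), and its highest shares were those of A5 and A6.

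**Figure D5:**
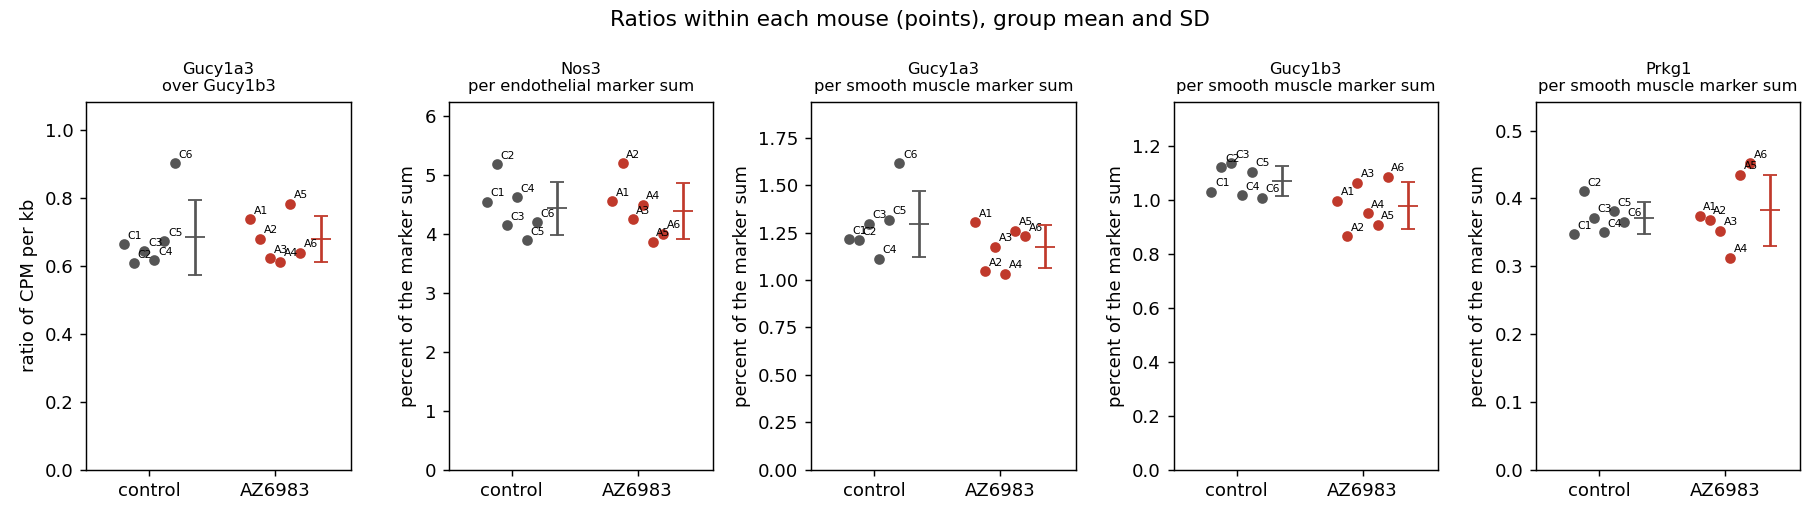
Ratio of Gucy1a3 to Gucy1b3 per kb, and Nos3, Gucy1a3, Gucy1b3 and Prkg1 as a percent of the marker sum of the same mouse, on linear axes from 0, with group mean and SD beside the points. C6 stands at 0.904 in the first panel, and 4 of 6 AZ6983 mice lie below every control for Gucy1b3 per smooth muscle marker sum.

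A wider list of 73 pathway genes was read from the same fit, of which 71 had a row and 67 were tested. At an unadjusted p under 0.05, 2 were higher and 4 lower, beside 7.38% and 2.81% of all genes tested. In edgeR 0 passed 10% FDR (adjusted p from 0.447 to 0.997), in limma-voom 0 and in DESeq2 1, which was Pde1c (adjusted p = 0.0528 on the same genes). Over the 67 genes the median log2 fold change was −0.03, with 23 positive and 44 negative values. Over all 15857 genes tested the median was 0.0090, with 8314 positive values. The list was chosen with earlier results known, and the difference in signs was not tested. Among 13 partners of the synthases, Nos1ap, an adaptor of the neuronal synthase, averaged 4.33 ± 0.710 CPM in the control group and 6.04 ± 1.36 CPM with AZ6983 (± SD, n = 6 each). In 4 of 6 AZ6983 mice it was above every control, and the difference was 0.48 (SE 0.170, adjusted p = 0.450). Nosip (−0.12), Nostrin (0.03) and Cav1 (−0.04), which bind the endothelial synthase, did not pass an unadjusted p of 0.05.

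For the supply of cofactor and substrate, 0 of 6 tested tetrahydrobiopterin genes and 0 of 6 arginine supply genes had an unadjusted p under 0.05. Gch1, which makes the first step of tetrahydrobiopterin synthesis, varied widely, averaging 11.5 ± 9.05 CPM in the control group and 7.96 ± 3.60 CPM with AZ6983 (± SD, n = 6 each), and its difference of −0.53 (SE 0.434, adjusted p = 0.653 from edgeR) was within that spread. Its regulator Gchfr had 4 to 44 counts per mouse and was not tested. The arginine transporter Slc7a1 had 0.13 on the log2 scale (adjusted p = 0.714), and the enzymes that rebuild arginine from citrulline, Ass1 and Asl, had −0.05 and −0.18 (adjusted p = 0.915 and 0.678). Among the arginine methyltransferases, whose products give rise to the methylarginines that Ddah1 and Ddah2 clear, Carm1 averaged 22.1 ± 1.66 CPM in the control group and 25.2 ± 2.99 CPM with AZ6983, a difference of 0.19 (SE 0.083, adjusted p = 0.478). Prmt1 was listed with only 1 to 10 counts per mouse and was not tested. It averaged 0.156 CPM in the control group, beside 26.1 CPM for Prmt5. The annotation used for counting is not given, and whether reads of Prmt1 were lost in counting was not tested. Its count is therefore not read as its level in the aorta. Of 8 tested genes downstream of the arginases 0 had an unadjusted p under 0.05, and Odc1, the polyamine enzyme that uses ornithine, had −0.06 (adjusted p = 0.814).

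Downstream of the cyclase, 2 of 8 tested phosphodiesterases that hydrolyse cGMP were lower at an unadjusted p under 0.05, beside 2.81% of all genes. The study had listed 1 of the 2, Pde1c, as lower in these mice. The pathway list was chosen with earlier results known, so this count is not an independent result. Pde5a, the cGMP-specific enzyme of smooth muscle, averaged 255 ± 21.6 CPM in the control group and 218 ± 29.5 CPM with AZ6983 (± SD, n = 6 each). In 3 of 6 AZ6983 mice Pde5a was below every control, and the difference was −0.23 (SE 0.094, adjusted p = 0.466). Pde1c, whose enzyme is activated by calcium, was at 4.92 ± 0.565 and 3.59 ± 0.281 CPM with groups that did not overlap, as 0.151% of all genes had in that direction, and the difference was −0.45 (SE 0.108, adjusted p = 0.447). Of 12 kinase genes and substrates of the kinase, 0 had an unadjusted p under 0.05, and Vasp, whose phosphorylation is a common readout of the kinase, had 0.04 (adjusted p = 0.918). Gucy1a2, the other alpha subunit, had 0.08 (adjusted p = 0.714).

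The genes whose log2 level was most like that of each tested gene over the 12 mice are named as a description, since they are the closest of all tested genes. For Gucy1a3 these were Foxc1 (r = 0.974), Shisa4 (0.944) and Pi15 (0.941), and for Gucy1b3 Dnajc10 (0.975), Degs1 (0.957) and B630005N14Rik (0.957). Prkg1 was closest to Runx1t1 (0.964), Traf5 (0.931) and Gm28932 (0.924). Nos1 was closest to Fndc5 (0.918), Smpx (0.896) and Gm26588 (0.896), of which Fndc5 and Smpx are genes of striated muscle. Ddah1 was closest to Atp7a (0.960), Alg2 (0.957) and Fgf12 (0.949), and Ddah2 to Noxo1 (0.927), Plekha2 (0.925) and Ddx56 (0.914). Nos2 was closest to Sept9 (0.910), Usp10 (0.901) and Tfe3 (0.898). Nos3 had the least close neighbours, which included Gm9531 (0.837) and Gprc5a (0.813).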

How the data were processed

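RNA from the thoracic aorta of 12 male ApoE-/- mice was depleted of ribosomal RNA and sequenced from stranded libraries by the authors. The authors deposited raw counts per gene symbol, without normalization. Per the submitters' processing notes, CASAVA 1.8.2, STAR 2.5.2b, HTSeq 0.6.1p1 and build mm10 were used, and the annotation and the strand setting are not given in the sources used here. Rows that name no gene did not enter library sizes or tests: reads on no gene (8.02% to 14.9% of a library), reads of no unique position (18.1% to 23.2%) and ambiguous reads (0.606% to 0.698%). Total counts on genes were 23810036 to 35864666 per mouse.

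Groups were taken from the sample titles. The quasi-likelihood test of edgeR 4.0.16 (R 4.3.3) was run with TMM, filterByExpr and no covariate on 15857 genes with Benjamini-Hochberg adjustment at 10% FDR, the study's threshold. CPM values are TMM-scaled, log2 levels use a prior count of 2, and the 95% intervals come from the quasi-likelihood fit. Ratios were compared by exact permutation over 924 assignments (two-sided), whose smallest p is 0.00216. Positions and exon lengths are those of GENCODE M21 (GRCm38), matched by symbol, and may differ from the authors' annotation. Alternatives were DESeq2 1.42.0 (the study's tool), limma-voom (limma 3.58.1), other normalizations and filters, 5% FDR, a covariate, and mice left out. The fits were tested on simulated data.

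The genes, lists and alternatives were chosen with earlier results of these data known. The genes named are the 10, the pathway genes with an unadjusted p under 0.05 or a direct partner role, and for each tested gene the 3 most correlated genes. Some of the genes under this rule are not reported here. Correlations with markers were added after seeing the data.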

Additional observations from a re-analysis of the deposited data

Results flagged for a closer look

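In groups of 6 mice, a mouse was picked out where its gap to the nearest other mouse was an unusually large part of the group's range (Dixon's criterion at 95%). Of 50 groups examined 5 had such a mouse, where chance gives about 2.5 (about 1 in 20). Arg1 had a log2 CPM of −3.16 in A6, below the −2.09 to −1.63 of the other AZ6983 mice, and this value rests on 3 counts. The ratio of Gucy1a3 to Gucy1b3 per kb was 0.904 in C6, above the 0.609 to 0.673 of the other controls. The log2 of the summed brown fat markers was 11.46 in C6 beside 11.997 to 12.20 in the other controls, and 12.58 in A5 beside 11.31 to 11.68 in the other AZ6983 mice. The log2 of the summed T cell and thymus markers was 9.97 in A4 beside 2.66 to 5.31 in the other AZ6983 mice.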

How the results depend on the processing

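The count of genes at 10% FDR was 0 in edgeR, 84 with DESeq2 on the same genes, 92 with DESeq2 on every gene, and 0 to 27 with each mouse left out (27 without A5, 1 without A1 and 1 without C6). None of the 10 genes was among these. Of the 10 genes, 1 had an unadjusted p under 0.05 without a filter, with DESeq2 on every gene and without A4 and A5 together, and 0 to 1 did with each mouse left out. This gene was Arg1 each time, and with fewer mice it passed the filter through the controls, where it is higher. Arg1 kept its direction in 17 alternatives (log2 fold change −1.36 to −0.97, smallest adjusted p 0.246), as did Arg2 in 17, and Ddah2, Gucy1a3 and Gucy1b3 in 21 each.

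When the no-gene read share entered as a covariate, the log2 fold change turned to −0.29 for Nos1 and −0.17 for Nos2. Without A4 and A5 together it was −0.0334 for Nos2, 0.0151 for Ddah1, 0.0768 for Prkg1 and 0.0225 for Nos3 per endothelial marker sum, and without a filter it was −0.0049 for Nos3. With each mouse left out it ranged from −0.0379 to 0.0540 for Nos3, −0.0158 to 0.59 for Nos1, −0.0524 to 0.41 for Nos2, −0.31 to 0.12 for Ddah1 and −0.0731 to 0.0179 for Prkg1. For the ratios to marker sums the range was −0.0623 to 0.0343 for Nos3, −0.0154 to 0.0911 for Prkg1, −0.18 to −0.07 for Gucy1a3 and −0.16 to −0.10 for Gucy1b3, whose exact permutation p was 0.0303 without A3 and 0.026 without A6, before adjustment. The cause of these changes was not tested. The pathway count of 6 stayed between 4 and 8. No paired analysis was possible because no mouse number is shared between the groups. Counts were lowest for the arginases, Nos1 and Nos2, with 133 and 152 counts over the 12 mice for Arg1 and Arg2, 409 for Nos1 and 821 for Nos2.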
